A study of Mus musculus with 60 samples.

Results

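DEL is 1 of 3 transgenic mouse lines in this series that differ in the variant of the aryl hydrocarbon receptor (AHR) they carry, and the comparison described here sets the livers of 4 DEL mice given 250 µg/kg of 2,3,7,8-tetrachlorodibenzo-p-dioxin (TCDD) against those of 5 DEL mice given corn oil. These 9 arrays were taken from the 60 arrays of the series by their titles, and all 21115 measured features were used. All were C57BL/6J males of 12 to 15 weeks, kept 1 to a cage, which received a single gavage and were sampled 96 hours later, according to their labels. Corn oil was the vehicle of every dose, so the control mice received it too. The other groups used below are DEL mice at 125, 500 and 1000 µg/kg (4 each), and INS mice, a second receptor variant, with corn oil (5) or 250 µg/kg (4). The promoter that drives the transgene, the state of the animals' own Ahr gene and the number of founders are not stated in the labels. Published work on these lines describes variants of the rat receptor placed in mice that lack their own, which is given as background and was not read from these data.

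AHR is a transcription factor that stays in the cytoplasm with chaperones until it binds a ligand. It then moves to the nucleus, pairs with ARNT and binds DNA elements with the core GCGTG, from which it raises transcription of drug-metabolizing enzymes such as the CYP1 family. TCDD is a potent and slowly cleared ligand, and in rodent liver it is known for fat accumulation, inflammation, loss of metabolic gene expression and wasting.

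All values are log2 expression values, in which a difference of 1 is a doubling, and they are compared only within a gene. Array means were 6.23 to 6.30 on all 9 arrays, while array medians were 5.81 to 5.90 with corn oil and 5.95 to 6.25 with TCDD. The male label held on all 9, with Xist at 2.49 to 3.44 and the Y-linked Eif2s3y at 9.04 to 9.50. The liver label also held: the mean of 12 hepatocyte markers was 12.95 to 13.04 with corn oil and 12.74 to 12.88 with TCDD, and albumin (Alb) differed by 0.03. Nothing in the labels gives a batch. The labels describe 1 animal per array.

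TCDD replicate 3 stood apart. It carried 129 features more than 1 above every other DEL array, against 0 to 3 on the other TCDD 250 arrays, and they included products of stomach epithelium. Gkn2, a gastrokine of gastric mucous cells, read 12.3 there and 3.20 to 4.03 on the 20 other DEL arrays. The gastric mucin Muc5ac read 11.5 against 3.65 to 4.82, the trefoil factor Tff1 12.3 against 4.53 to 5.83, and the pepsinogen Pgc 10.0 against 3.67 to 4.95. Of 20 stomach epithelium genes, a list chosen after this was seen, 16 were more than 1 above all 20 other arrays. The mean over the 20 was 8.80 on replicate 3, 4.30 to 4.49 with corn oil and 4.13 to 4.51 on the other 3 TCDD 250 arrays. The parietal and chief cell genes Atp4a, Atp4b, Cblif and Chia1 were not raised. The part of these transcripts in any liver result was not tested, so some results that changed without replicate 3 are given both ways. Results with no second value include replicate 3.

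**Figure D1:**
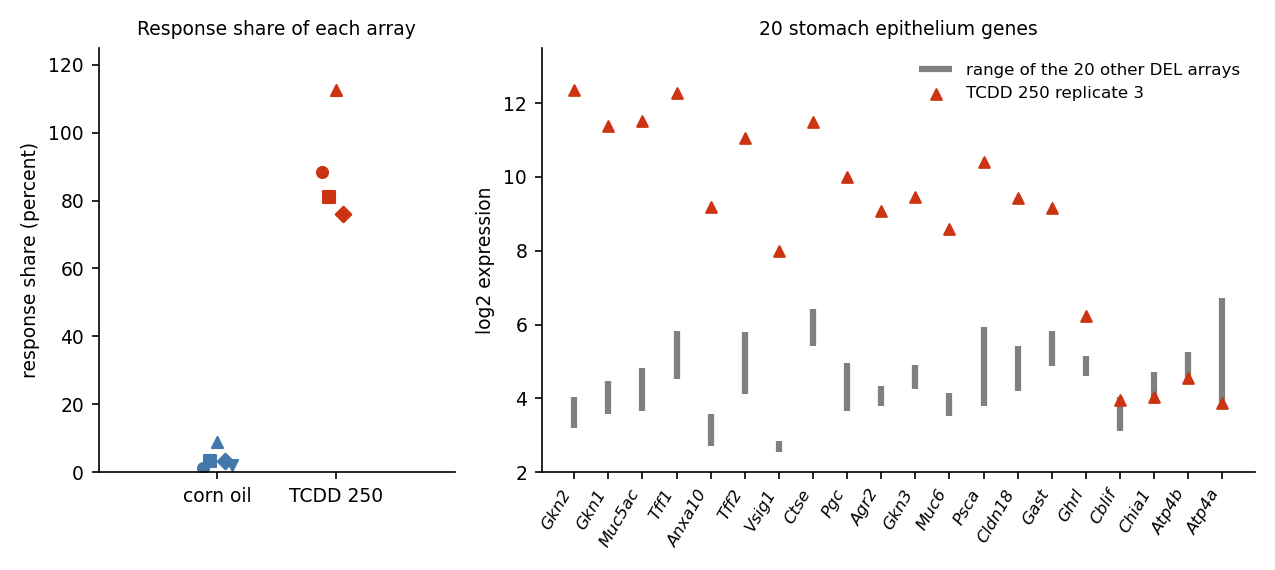
The left panel plots the response share of each array in percent (corn oil blue, TCDD 250 red, marker shape for the replicate number, the triangle being replicate 3), and the right panel plots log2 expression of 20 stomach epithelium genes on TCDD 250 replicate 3 (triangles) against the range over the 20 other DEL arrays (grey bars). All 4 TCDD arrays lie above all corn oil arrays in the left panel, and 16 of the 20 triangles lie above the grey bars.

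TCDD changed gene expression widely and in both directions. In a linear model over the 21 DEL arrays (limma, Benjamini-Hochberg adjusted p under 0.05, which is what "called" means below), 4878 of 21115 features were called, which is 23.1%. Of these, 2546 rose (12.1% of all features) and 2332 fell (11%). Large rises outnumbered large falls: 250 features rose (1.18%) and 95 fell (0.45%) by at least 2. By at least 3, 56 rose (0.265%) and 19 fell (0.09%). The corn oil and TCDD arrays did not overlap for 3834 of the called features (18.2% of all). The median difference over all features was -0.06. Without replicate 3, 3940 features were called, of which 3825 were among the 4878, with 2094 higher and 1846 lower. Centring each array on its median, which moved the median difference of all features to -0.32, gave 1610 features higher and 7712 lower, so the balance of rises and falls depends on that scaling.

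The 4 treated livers differed in how far they responded. The response share of an array is the size of its departure from corn oil along the mean departure of the other TCDD arrays, where 100% is an equal departure. The TCDD arrays gave 88.3%, 81.0%, 112% and 76.0% for replicates 1 to 4, and the corn oil arrays gave 1.34%, 3.18%, 8.98%, 3.31% and 1.97%. Replicate 3 thus had the largest share as well as the stomach genes. With replicate 3 left out of the reference, the other 3 gave 94.0%, 75.9% and 84.1%. When dim features were left out, replicates 1 to 4 gave 91.0%, 82.7%, 112% and 88.3%, so replicate 4 was no longer the lowest. The standard deviation (SD) within the group was larger with TCDD than with corn oil for 69.9% of features.

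**Figure D2:**
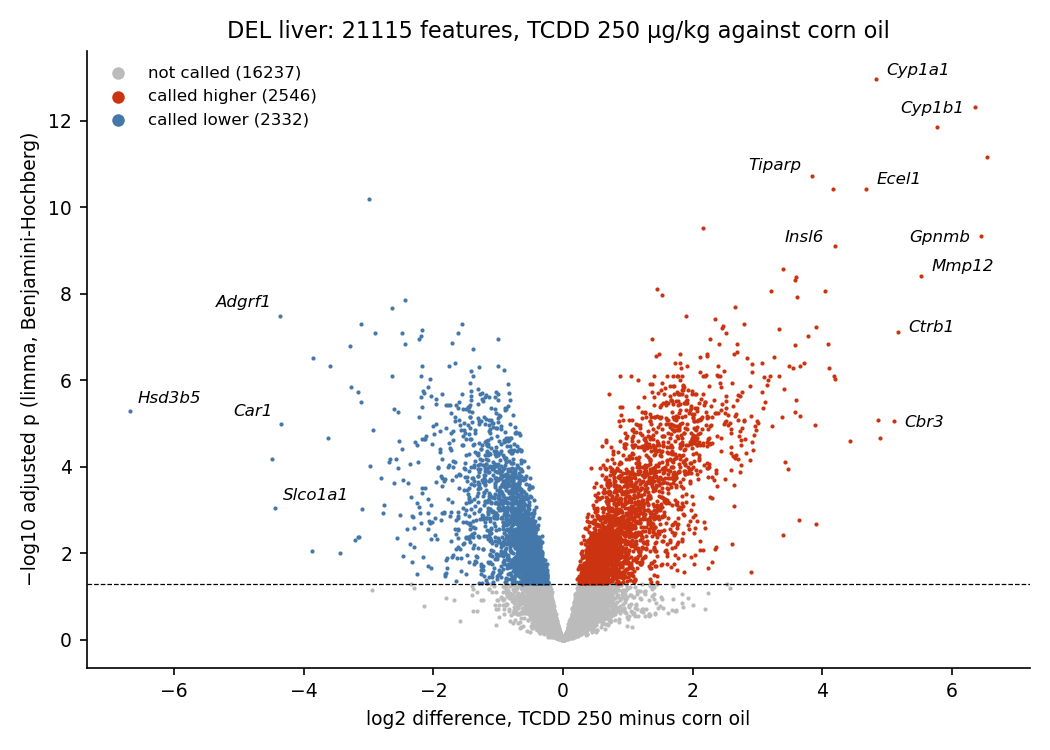
Each point is 1 of 21115 features, with the log2 difference of TCDD 250 minus corn oil on the x axis and minus log10 of the limma adjusted p on the y axis. Points above the dashed line are the 2546 called higher (red) and the 2332 called lower (blue), and Cyp1a1, Cyp1b1 and Gpnmb are among the points farthest up or right.

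Targets of AHR rose. Of 11 measured AHR target genes, 8 rose and 0 fell, with a median difference of 1.01. Cyp1a1, the best known target and a monooxygenase of aromatic hydrocarbons, read 8.53, 8.63, 7.53, 8.21 and 7.76 on the corn oil arrays and 12.95, 12.94, 12.98 and 12.95 on the TCDD arrays. The groups did not overlap, and the corn oil arrays spread more than the TCDD arrays, which were nearly equal (SD 0.48, n = 5, against 0.02, n = 4). The difference was 4.82 ± 0.16 (standard error, SE), a 28.3-fold rise (limma adjusted p = 1.07e-13). Cyp1b1, its relative that is nearly silent in resting liver, went from 6.68, 5.60, 5.53, 4.93 and 5.60 to 12.10, 11.96, 12.20 and 11.85. That is a rise of 6.36 ± 0.24. Its corn oil mean of 5.67 lay below the medians of those arrays. The values used here carry no detection call, so differences from such dim levels have no check against background and are not given as folds. Cyp1a2, which hepatocytes already express strongly and which also binds TCDD, rose by 0.71 ± 0.08, from 12.58 to 12.87 on the corn oil arrays to 13.41 to 13.53 on the TCDD arrays, with no overlap. The highest value of any feature on those arrays was 13.57 to 13.67, so Cyp1a2 lay near the top of the range, and saturation was not tested.

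Both feedback inhibitors of the receptor rose. Ahrr, the AHR repressor, which competes for ARNT, read 3.85, 4.39, 4.30, 4.21 and 4.33 with corn oil and 8.52, 8.43, 8.14 and 8.45 with TCDD, a difference of 4.17 ± 0.21. Tiparp, an ADP-ribosyltransferase that marks AHR for degradation, read 6.68, 6.79, 7.02, 6.69 and 6.93 with corn oil and 10.79, 10.29, 10.55 and 11.04 with TCDD, a difference of 3.85 ± 0.18. Nqo1, a quinone reductase under both AHR and NRF2, rose by 3.78 ± 0.32, from 7.31 to 7.89 up to 10.79 to 11.75. In each of these the highest corn oil array lay far below the lowest TCDD array. Ahr itself was not called, at 9.36 ± 0.12 (SD, n = 5) and 9.38 ± 0.25 (SD, n = 4), a difference of 0.02 ± 0.14 (limma adjusted p = 0.939). How far the Ahr feature, designed on the mouse gene, reads the transgene was not tested. Of the 8 measured genes of the receptor complex, only the coactivator Ncoa1 was called, lower by 0.46 ± 0.15. It lost the call in 7 alternative fits, among them that of the compared groups alone and that without TCDD replicate 4 (-0.27).

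Aldh3a1, an aldehyde dehydrogenase of hydrocarbon-exposed liver and of stomach and cornea, read 6.15 on replicate 3 and 4.06 to 4.43 on the other 8 arrays, so only replicate 3 was high. It was not called (0.47 ± 0.27, limma adjusted p = 0.242), and without replicate 3 the difference was 0.00. Cyp2s1, an epithelial CYP, differed by 1.01 and was not called either.

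**Figure D3:**
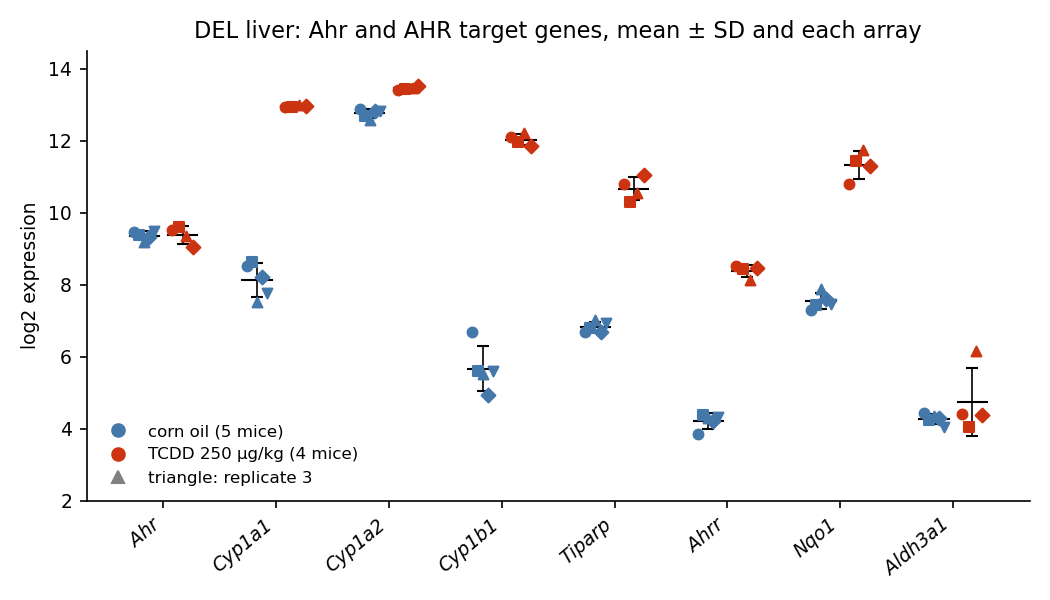
Log2 expression of Ahr and 7 AHR target genes on each of the 5 corn oil arrays (blue) and 4 TCDD 250 arrays (red), with the marker shape giving the replicate number and bars giving mean ± SD. For Cyp1a1, Cyp1a2, Cyp1b1, Tiparp, Ahrr and Nqo1 the groups do not overlap; Ahr overlaps, and the high Aldh3a1 point is replicate 3.

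The sequence before the start of 6 of these genes is shown because the receptor's DNA element has a fixed core that can be looked for by eye. Each is the 250 bases before the RefSeq transcription start in GRCm38.p6, written 5′ to 3′ on the gene's own strand, with GCGTG or its reverse complement CACGC in capitals. The first 4 are AHR targets that hold the core. Nqo1 and Gpnmb, shown beside them, also rose and hold no copy in this window.
Cyp1a1, chr9:57697363-57697612, plus strand: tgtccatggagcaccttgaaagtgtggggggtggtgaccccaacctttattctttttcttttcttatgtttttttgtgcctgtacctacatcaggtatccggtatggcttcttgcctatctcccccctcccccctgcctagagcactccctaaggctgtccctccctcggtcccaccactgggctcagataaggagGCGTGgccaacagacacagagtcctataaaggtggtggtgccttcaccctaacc
Cyp1b1, chr17:79715062-79715311, minus strand: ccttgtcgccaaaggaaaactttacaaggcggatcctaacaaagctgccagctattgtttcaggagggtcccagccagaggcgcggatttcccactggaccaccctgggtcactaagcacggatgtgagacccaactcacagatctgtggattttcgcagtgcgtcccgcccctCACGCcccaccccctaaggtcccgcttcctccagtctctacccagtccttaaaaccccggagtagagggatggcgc
Tiparp, chr3:65528197-65528446, plus strand: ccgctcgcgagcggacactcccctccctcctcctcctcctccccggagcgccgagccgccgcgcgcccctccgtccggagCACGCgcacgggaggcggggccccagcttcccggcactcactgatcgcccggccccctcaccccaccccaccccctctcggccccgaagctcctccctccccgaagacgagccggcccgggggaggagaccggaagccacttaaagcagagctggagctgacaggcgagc
Ahrr, chr13:74292332-74292581, minus strand: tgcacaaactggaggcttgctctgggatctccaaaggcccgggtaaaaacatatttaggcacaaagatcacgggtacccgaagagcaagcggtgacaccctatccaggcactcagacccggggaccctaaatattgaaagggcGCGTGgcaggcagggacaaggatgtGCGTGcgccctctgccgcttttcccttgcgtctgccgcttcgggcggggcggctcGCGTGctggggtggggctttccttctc
Nqo1, chr8:107403206-107403455, minus strand: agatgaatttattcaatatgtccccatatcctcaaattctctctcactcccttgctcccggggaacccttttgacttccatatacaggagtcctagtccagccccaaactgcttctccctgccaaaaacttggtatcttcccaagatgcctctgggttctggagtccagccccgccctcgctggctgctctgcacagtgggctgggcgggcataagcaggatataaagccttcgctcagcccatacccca
Gpnmb, chr6:49036268-49036517, plus strand: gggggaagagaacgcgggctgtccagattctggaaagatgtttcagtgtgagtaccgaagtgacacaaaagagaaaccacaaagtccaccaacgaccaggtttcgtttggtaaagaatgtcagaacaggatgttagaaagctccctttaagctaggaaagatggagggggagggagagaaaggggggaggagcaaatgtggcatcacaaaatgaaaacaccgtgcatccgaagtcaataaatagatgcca

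Ahrr held 3 copies of the core in this window, and Cyp1a1, Cyp1b1 and Tiparp held 1 each. Cyp1a2, Mmp12, Ctrb1 and Cbr3 held none. The core is short and common: it occurs in 28.2% of all 32851 promoter windows of the table. Among measured genes with a window it occurred in at least 1 window for 43.5% of 2011 called higher, 45.2% of 1810 called lower and 37.4% of 12221 not called. Among the 195 that rose by at least 2 it occurred in 29.2%. The presence of these letters is a description and not evidence of binding, and enhancers lie outside the window.

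Antioxidant genes rose with the AHR targets. NRF2 is the transcription factor that answers electrophilic stress, and of 18 measured targets 10 rose and 2 fell, with a median of 0.70. Cbr3, a carbonyl reductase, rose by 5.11 ± 0.64, from 4.21 to 4.61 with corn oil to 9.08, 9.84, 10.09 and 8.91. Slc7a11, the cystine importer for glutathione synthesis, rose by 3.47 ± 0.56, and Srxn1, which repairs peroxiredoxins, by 2.52 ± 0.28. Nfe2l2, which encodes NRF2, rose by 1.38. The 2 that fell were Keap1, its inhibitor, by 0.47 ± 0.13, and the lipogenic Me1 by 0.61 ± 0.17, the latter not called with all 60 arrays in the fit.

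Conjugating enzymes split. Of 21 measured glucuronosyl- and sulfotransferases, 2 rose and 7 fell, with a median of -0.46. Among all features 12.1% rose and 11% fell, so the rises in this list were no more frequent than the background. The risers were Ugt1a7c, by 4.86 ± 0.61, and Ugt1a9, by 2.16 ± 0.12. Ugt1a isoforms share their 3′ exons, so the array may not fully separate them. Ugt1a1 differed by 0.01 and was not called. The sulfotransferase Sult2a8, a male-biased enzyme of bile acid sulfation, fell by 3.87 ± 1.03. It read 11.17 to 11.44 with corn oil and 8.81, 7.17, 4.69 and 9.0 with TCDD, so all treated arrays were lower but replicate 3 was lowest by far. Without replicate 3 the difference was -2.96 (limma adjusted p = 0.0478). Ugt3a1 fell by 2.33 ± 0.49. Of 16 glutathione S-transferases, 2 rose (Gstm3 by 1.53 ± 0.11 and Gstm2 by 0.88 ± 0.21) and 4 fell, among them Gstm6 by 0.93 ± 0.24 (median 0.04, and -0.23 after median centring). Without replicate 3 only 2 of the 16 fell and 2 rose, both close to the background. Among 16 genes responsive to the xenosensors CAR and PXR, 1 was higher and 2 lower, shares near those of all features. Cyp3a13 was lower by 1.20 ± 0.19 and the CAR gene Nr1i3 higher by 1.06 ± 0.34. Nr1i3 lost the call in 7 alternatives, among them median centring and the fit without replicate 4.

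**Figure D4:**
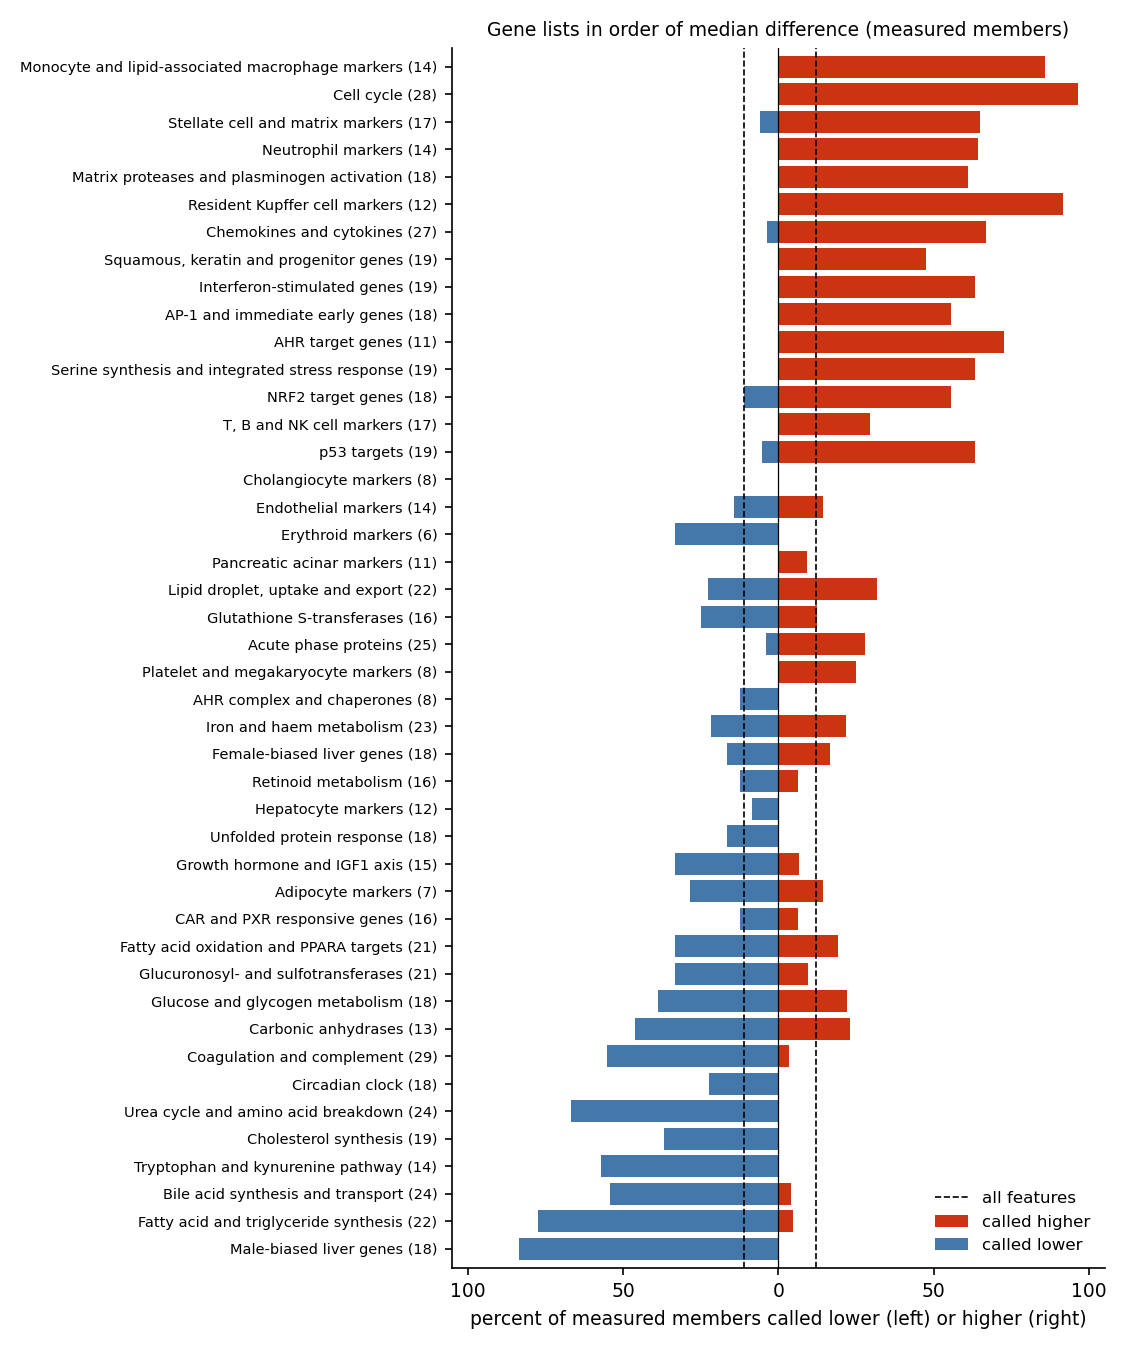
Bars give, for each of 44 gene lists, the percent of its measured members (number in brackets) called higher (red, right) or lower (blue, left), with lists ordered by median difference; dashed lines mark the 12.1% and 11% of all features. Macrophage, cell cycle, stellate and neutrophil lists stand at the top, and male-biased, lipid synthesis and bile acid lists at the bottom.

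Bile acid genes fell as a group. Of 24 measured genes of bile acid synthesis and transport, 13 fell and 1 rose, with a median of -0.99, and 15 had no overlap between groups, against 20.8% of all features. Slco1a1, a sinusoidal importer of organic anions and bile acids, read 10.47, 10.61, 10.66, 11.27 and 10.99 with corn oil and 7.52, 6.00, 4.06 and 7.81 with TCDD, a fall of 4.45 ± 0.89. Replicate 3 was again the lowest, and without it the difference was -3.69. Cyp8b1, the sterol 12-alpha-hydroxylase that makes cholic acid, fell by 2.21 ± 0.45, and the importer Slco2b1 fell by 2.19 ± 0.24. Cyp7a1, the rate-limiting enzyme, differed by -2.94 without being called. The member that rose was Abcc4, an efflux pump of the basolateral membrane, by 2.24 ± 0.69. Its TCDD arrays read 7.93, 9.63, 9.84 and 6.60, and the call was lost without replicate 2 or without replicate 3.

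Genes of lipid synthesis fell. Of 22 genes of fatty acid and triglyceride synthesis, 17 fell and 1 rose, with a median of -1.09. Elovl3, an elongase of very long saturated chains, fell by 3.45 ± 0.93. Srebf1, which encodes the master regulator SREBP1, fell by 2.53 ± 0.35, and Fasn, the fatty acid synthase, by 1.98 ± 0.42. Srebf1 read 9.61 to 10.33 with corn oil and 7.89, 8.59, 6.90 and 6.42 with TCDD, with no overlap. The riser was Lpin2, a phosphatidate phosphatase, by 0.79 ± 0.14. Of 19 cholesterol synthesis genes, 7 fell and 0 rose, and all 19 had a negative difference (median -0.84). Sc5d fell by 1.24 ± 0.26 and the sterol carrier Stard4 by 1.24 ± 0.32. Only 3 of the 19 were called without replicate 3 (median -0.61).

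Fat uptake and storage genes moved both ways. In the list of lipid droplets, uptake and export, 7 of 22 rose and 5 fell (median 0.06, and -0.20 after median centring, with 4 higher and 10 lower). Without replicate 3 only 4 rose, and without replicate 4 only 2 fell. Lpl, lipoprotein lipase, which adult hepatocytes barely express, rose by 2.28 ± 0.27, from 7.42 to 7.97 up to 9.71 to 10.12. Fabp4, a fatty acid chaperone of fat cells and macrophages, rose by 1.97 ± 0.40 and Cd36, a fatty acid transporter, by 1.39 ± 0.18. Macrophages also express these 3, and their marker lists rose too, as given below; the part of cell number in these rises was not tested. In bulk tissue, more or fewer cells of a type and more or less RNA per cell cannot be told apart. Cidec, a droplet fusion protein, rose by 2.29 ± 0.67, with TCDD arrays at 7.96, 8.20, 10.39 and 9.51, and was not called without replicate 3. Of 21 fatty acid oxidation genes and PPARA targets, 4 rose and 7 fell. Acaa1b, a peroxisomal thiolase, fell by 2.14 ± 0.29, while Acot3, an acyl-CoA thioesterase, rose by 1.97 ± 0.32. Fgf21, the fasting and stress hormone of the liver, rose by 3.40 ± 0.22, from 4.78 to 5.12 up to 7.91, 7.66, 8.87 and 8.83.

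Genes of amino acid breakdown fell, and those of sugar metabolism moved both ways. Of 24 genes of the urea cycle and amino acid breakdown, 16 fell and 0 rose (median -0.83), and 13 fell without replicate 3 (median -0.75). Hao1, glycolate oxidase, fell by 2.93 ± 0.39, Amdhd1 of histidine breakdown by 1.87 ± 0.28 and Gpt, alanine aminotransferase, by 1.54 ± 0.22. Otc, the urea cycle enzyme, fell by 2.08 ± 0.63, but not beyond the threshold without replicate 3. Of 14 genes of the tryptophan and kynurenine pathway, whose products include AHR ligands, 8 fell and 0 rose (median -0.85). The count of falls was 6 without replicate 3 (median -0.66). Afmid, kynurenine formamidase, read 11.63, 11.50, 11.91, 11.53 and 11.61 with corn oil and 8.21, 9.46, 7.87 and 7.93 with TCDD, a fall of 3.27 ± 0.35. Aadat fell by 1.90 ± 0.28 and Ido2 by 1.27 ± 0.18, while the rate-limiting Tdo2 differed by -0.20 and was not called. Among 18 glucose and glycogen genes, 7 fell and 4 rose. The glucose transporter Slc2a2 fell by 2.51 ± 0.52 and the glycolytic enzyme Pklr by 2.06 ± 0.21, and the risers were Igfbp1, an insulin-repressed secreted protein, by 2.64 ± 0.52, Hk2 by 0.94 ± 0.25, Ldha by 0.33 ± 0.08 and Hk1 by 0.55 ± 0.19. Ldha was not called after median centring. Hk1 lost its call in 9 alternatives, among them median centring, quantile normalization and the fit without replicate 3 (0.40, limma adjusted p = 0.18). Of 16 retinoid genes 1 rose and 2 fell, near or below the 12.1% and 11% of all features, and 8 fell after median centring. The riser was Bco1, which cleaves beta-carotene, by 1.88 ± 0.29.

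Genes of serine synthesis and stress rose. In the list of serine synthesis and the integrated stress response, 12 of 19 rose and 0 fell (median 0.75). Psat1, the aminotransferase of serine synthesis, read 6.29, 5.67, 5.56, 5.93 and 5.76 with corn oil and 9.39, 9.78, 10.78 and 9.86 with TCDD, a rise of 4.11 ± 0.40. Atf3, a stress transcription factor, rose by 3.34 ± 0.27. Of 18 unfolded protein response genes 0 rose and 3 fell, against 12.1% and 11% of all features. None of these 3 was called without replicate 3 or without replicate 4. They were Hyou1 (-0.55), Pdia4 (-0.53) and Hsp90b1 (-0.45), chaperones of the endoplasmic reticulum. Hyou1 and Hsp90b1 lost the call in 11 alternatives each. After median centring 12 of the 18 genes were lower (median -0.42).

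Growth arrest and proliferation genes rose side by side. Of 28 cell cycle genes, 27 rose and 0 fell, with a median of 1.73, and 27 had no overlap between groups. The count of rises was 23 without replicate 3 (median 1.65). Ccna2, cyclin A2, rose by 3.07 ± 0.33, Ccnb2, cyclin B2, by 2.90 ± 0.36, and Aurkb, a mitotic kinase, by 2.73 ± 0.30. Ccna2 read 5.04 to 5.79 with corn oil and 8.35, 8.65, 9.19 and 8.08 with TCDD. Of 19 p53 targets, 12 rose and 1 fell (median 0.67). Cdkn1a, the p21 inhibitor of cyclin-dependent kinases, rose by 4.03 ± 0.28, from 8.55, 7.52, 7.84, 6.94 and 6.99 to 11.22, 11.32, 12.05 and 11.82. Gadd45b rose by 3.26 ± 0.30 and the death receptor Tnfrsf10b by 2.74 ± 0.38, whereas Bbc3, which encodes the pro-apoptotic PUMA, fell by 0.68 ± 0.15. Of 18 AP-1 and immediate early genes 10 rose and 0 fell (median 1.07), with Ier3 higher by 2.09 ± 0.24 and Klf6 by 1.77 ± 0.20. Which cells carried the cell cycle transcripts was not measured.

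Male-biased liver genes fell. Of 18 measured male-biased liver genes 15 fell and 0 rose, with a median of -1.81, the lowest of the 44 lists. Hsd3b5, a steroid dehydrogenase restricted to male mouse liver, had the most negative difference of the named genes: it read 11.90, 11.85, 11.90, 12.37 and 11.97 with corn oil and 6.87, 4.96, 3.40 and 6.00 with TCDD, a difference of -6.69 ± 0.80 (limma adjusted p = 5.11e-06). Its TCDD mean of 5.31 lay below the medians of those arrays, so no fold is given. Serpina4-ps1, a serpin pseudogene transcript, fell by 4.48 ± 0.68. Cyp4a12a, a male-biased fatty acid hydroxylase, fell by 1.80 ± 0.51, and this call was lost with all 60 arrays in the fit. Of 18 female-biased genes 3 rose and 3 fell, near the 12.1% and 11% of all features. Only 1 fell without replicate 3 or without replicate 4. Abcd2, a peroxisomal transporter, rose by 1.41 ± 0.24 and Fmo2, a monooxygenase, by 1.40 ± 0.37. In the growth hormone axis, through which these sex differences are normally kept, 5 of 15 genes fell and 1, Igfbp1, rose. The receptor Ghr fell by 1.05 ± 0.19, the IGF1 partner Igfals by 1.50 ± 0.33 and Igfbp2 by 3.10 ± 0.62, while Igf1 differed by -0.15 and was not called.

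Clock and iron genes were counted next. Of all features, 12.1% rose and 11% fell. Of 18 clock genes 4 fell and 0 rose (median -0.69), with Nr1d1, a repressor of the clock loop, lower by 1.13 ± 0.21 and Cry2 by 0.82 ± 0.21. Without replicate 4, 2 of the 18 fell (median -0.51). Of 23 iron and haem genes 5 rose and 5 fell, and 3 fell without replicate 4. Hmox1, haem oxygenase, rose by 1.80 ± 0.21, and Hamp2, a hepcidin gene, fell by 1.77 ± 0.33, while Hamp differed by -0.17 and was not called. Among 13 carbonic anhydrases 6 fell and 3 rose. Car1 read 9.70 to 9.89 with corn oil and 5.77, 6.09, 3.91 and 6.10 with TCDD, a fall of 4.35 ± 0.56, and Car14 fell by 3.63 ± 0.50. Car13 rose by 2.21 ± 0.27. Car2, which stomach epithelium also expresses, rose by 1.41 ± 0.38, with 9.70 on replicate 3 against 7.73 to 7.90 on the other TCDD arrays, and by 0.94 without replicate 3.

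Myeloid cell transcripts rose. Of 14 markers of monocytes and lipid-associated macrophages 12 rose and 0 fell, with a median of 2.27, the highest of the 44 lists. The list mean was 6.91 to 7.24 with corn oil and 9.19 to 9.46 with TCDD. Gpnmb, a glycoprotein of lipid-laden macrophages, read 5.92, 4.66, 4.78, 4.26 and 5.50 with corn oil and 11.49, 11.52, 11.52 and 11.35 with TCDD, a rise of 6.44 ± 0.37 (limma adjusted p = 4.60e-10). Trem2, a lipid-sensing receptor of the same cells, rose by 3.57 ± 0.31, Lgals3, galectin-3, by 3.60 ± 0.26 and Ccr2, the chemokine receptor of recruited monocytes, by 2.39 ± 0.29. Of 12 markers of resident Kupffer cells 11 rose and 0 fell (median 1.40, list mean 8.53 to 8.91 against 9.69 to 10.16). Marco, a scavenger receptor, rose by 2.01 ± 0.27, Cd5l by 1.76 ± 0.19 and C1qb by 1.75 ± 0.22. Of 14 neutrophil markers 9 rose and 0 fell (median 1.67), with the collagenase Mmp8 higher by 3.58 ± 0.43 and the cytokine receptor Csf3r by 2.34 ± 0.28. The granule genes Elane, Mpo, Ngp, Camp and Ltf, made by precursors in marrow, differed by -0.19 to 0.05 and were not called.

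Lymphoid markers followed. Of 17 markers of T, B and NK cells 5 rose and 0 fell (median 0.69), and without replicate 3, 4 rose and 1 fell. Gzma and Gzmb, granzymes of cytotoxic cells, rose by 1.95 ± 0.44 and 1.61 ± 0.30. Cd79b, of the B cell receptor, rose by 1.04 ± 0.26, with 9.39 on replicate 3 against 8.34 to 8.52 on the other TCDD arrays, and by 0.80 without replicate 3. Cd3e differed by 0.22 and Cd8a by 0.33, neither called. Of 8 platelet markers 2 rose: Pf4, a platelet chemokine that macrophages can also carry, by 3.66 ± 0.45, and Clec1b, which Kupffer cells also express, by 1.41 ± 0.17. The platelet integrin gene Itga2b differed by -0.23 and was not called.

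Chemokines and interferon-stimulated genes rose with them. Of 27 chemokines and cytokines 18 rose and 1 fell (median 1.26). The monocyte attractant Ccl2 read 5.54, 6.06, 6.36, 5.94 and 5.61 with corn oil and 9.69, 8.41, 8.64 and 10.41 with TCDD, a rise of 3.38 ± 0.42. Ccl7 rose by 3.88 ± 0.50, Ccl3 by 3.71 ± 0.35 and Ccl6 by 3.65 ± 0.35, while Il6 differed by -0.03 and was not called. The member that fell was Cxcl12, a stromal chemokine, by 0.75 ± 0.22, not called without replicate 4. Of 19 interferon-stimulated genes 12 rose and 0 fell (median 1.14), with Usp18 higher by 2.15 ± 0.26 and Oas2 by 2.06 ± 0.29.

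Secreted liver proteins split into few risers and many that fell. Of 25 acute phase genes 7 rose and 1 fell (median 0.03). Lcn2, the siderophore-binding lipocalin-2, read 9.44, 8.18, 8.46, 8.58 and 8.25 with corn oil and 12.67, 12.60, 13 and 12.41 with TCDD, a rise of 4.09 ± 0.36. The interleukin-1 receptor antagonist gene Il1rn rose by 2.50 ± 0.30 and the serum amyloid gene Saa2 by 2.17 ± 0.57, while Crp differed by -0.67 and was not called. After median centring 6 acute phase genes were higher and 8 lower. Of 29 coagulation and complement genes 16 fell and 1 rose (median -0.68), and 11 fell without replicate 3 (median -0.52). Mbl2, a lectin of the complement system, fell by 1.54 ± 0.31, coagulation factor F7 by 1.50 ± 0.36 and C6 by 1.35 ± 0.31. The member that rose was C1qa, by 1.62 ± 0.22, a gene of macrophages and not of hepatocytes.

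Matrix and scar-forming cell genes rose. Of 18 matrix proteases and plasminogen activation genes 11 rose and 0 fell (median 1.43), and 8 rose without replicate 3 (median 1.16). Mmp12, macrophage elastase, read 4.84, 4.97, 5.72, 4.73 and 5.08 with corn oil and 10.55, 10.15, 10.30 and 11.37 with TCDD, a rise of 5.53 ± 0.37. Mmp13, a collagenase, rose by 4.18 ± 0.42, and their inhibitor Timp1 by 3.60 ± 0.41. Of 17 stellate cell and matrix markers 11 rose and 1 fell (median 1.68). The contractile genes Acta2 and Tagln rose by 2.66 ± 0.40 and 2.61 ± 0.27, and Lox, which cross-links collagen, by 2.77 ± 0.36. Acta2 read 9.56, 8.36, 9.28, 8.12 and 8.06 with corn oil and 11.30, 11.37, 11.74 and 10.93 with TCDD. Smooth muscle also expresses Acta2 and Tagln. Hhip, a hedgehog inhibitor of quiescent stellate cells, fell by 0.84 ± 0.17. Endothelial markers were near the background, with 2 of 14 higher and 2 lower. The falls of the receptors Kdr (-0.62) and Tek (-0.56) each lost the call in 8 alternatives. One of these was the fit without replicate 4, when 5 of the 14 were higher and 0 lower.

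Among epithelial genes, results both with and without replicate 3 are given. Of 19 squamous, keratin and progenitor genes 9 rose and 0 fell (median 1.20), and 8 rose without replicate 3 (median 0.86). The list mean was 6.51 to 6.71 with corn oil and 7.62 to 9.06 with TCDD. Sprr1a, a protein of the cornified envelope, read 7.22, 5.55, 5.35, 4.93 and 5.87 with corn oil and 10.58, 10.39, 11.42 and 10.33 with TCDD, a rise of 4.90 ± 0.67 that was 4.65 without replicate 3. Ly6d, a surface protein of squamous and lymphoid cells, rose by 4.42 ± 0.62 and by 4.14 without it. Of 8 cholangiocyte markers 0 were called. Krt19 read 10.69 on replicate 3 and 5.19 to 6.65 on the other 8 arrays, and its difference turned from 1.0 to -0.20 without replicate 3. Tff2 read 11.06 on replicate 3 and 4.12 to 4.92 on the other 8. Their part in the list values was not tested.

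Several of the largest changes lay outside these lists or apart from their list. Ctrb1, chymotrypsinogen B of the exocrine pancreas, read 4.39, 4.16, 4.63, 4.26 and 4.09 with corn oil and 9.60, 8.78, 9.51 and 10.00 with TCDD, a rise of 5.17 ± 0.43. The other 10 measured pancreatic acinar genes differed by -0.32 to 0.44, and none was called. Ecel1, a metallopeptidase of nerve cells, rose by 4.68 ± 0.23, from 4.67 to 5.30 up to 9.48 to 9.97. Insl6, an insulin-like gene known from testis, rose by 4.19 ± 0.25, and Nptx1, a synaptic pentraxin, by 4.19 ± 0.43, its TCDD arrays at 10.13, 10.03, 8.58 and 8.69. Adgrf1, an adhesion G protein-coupled receptor, fell by 4.36 ± 0.34, from 8.41 to 9.73 down to 4.39 to 5.32. The succinate receptor Sucnr1 fell by 3.86 ± 0.36 and the nucleotide receptor P2ry4 by 3.29 ± 0.29. The glutathione peroxidase Gpx6 fell by 3.16 ± 0.34, the carboxylesterase Ces3b by 3.20 ± 0.78, the hydroxylase Cyp4f14 by 3.16 ± 0.76 and the methyltransferase Inmt by 3.15 ± 0.76. For the last 3, replicate 3 was the lowest TCDD array, and the differences without it were -2.57, -2.49 and -2.68.

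Markers of red cells, fat cells and hepatocytes were counted last, again beside 12.1% of all features that rose and 11% that fell. Among 6 erythroid markers Alas2, the erythroid haem synthesis enzyme, fell by 1.62 ± 0.39 and the transcription factor gene Klf1 by 1.59 ± 0.21, whereas Hbb-bs differed by 0.43 and was not called. Among 7 adipocyte markers Fabp4 rose, and Lipe and Pparg fell by 0.84 ± 0.16 and 0.70 ± 0.19. Adipoq differed by 0.22 and was not called. Of 12 hepatocyte markers 1 was called, the apolipoprotein gene Apoa1, lower by 0.27 ± 0.08. It lost the call in 3 alternatives, among them the fit without replicate 3. After median centring 9 of the 12 were lower. Without replicate 4, 1 neutrophil, 1 platelet and 1 pancreatic acinar marker were called lower, and 2 hepatocyte markers.

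The next question was whether 250 µg/kg differed from the other doses in DEL mice. No feature was called between 250 µg/kg and any other dose (limma, 0 of 21115 each, 0.0%). At an unadjusted p under 0.05 there were 761 features against 125 µg/kg (3.6%), 804 against 500 µg/kg (3.81%) and 1667 against 1000 µg/kg (7.89%). Where nothing differs, a share of about 0.05 passes this threshold. The counts against 125 and 500 µg/kg lay below that share, and the count against 1000 µg/kg lay above it. Cyp1a1 read 12.96 at 250 µg/kg (mean, n = 4) and 12.97, 12.90 and 12.92 at 125, 500 and 1000 µg/kg (n = 4 each). Whether such high readings saturate was not tested. Gpnmb read 11.47 at 250 µg/kg and 10.64, 11.69 and 11.60 at the others, the 125 µg/kg arrays spreading from 9.19 to 11.28. Hsd3b5 read 5.31, and 5.20, 4.51 and 4.94 at the others. The difference of 250 minus 125 µg/kg was 0.83 ± 0.39 for Gpnmb and 0.46 ± 0.34 for Nqo1, neither called. Both SEs exceeded the median SE of 0.16 over all features, so these 2 genes do not set what was detectable for others. These comparisons share the 250 µg/kg arrays, and a p that misses the threshold does not show that the doses act alike. Without TCDD 250 replicate 4, 1 feature was called against 500 µg/kg, the MHC class II regulator gene Ciita, higher at 250 µg/kg by 1.07 (limma adjusted p = 0.0345); it was chosen after its value was seen.

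The last comparison set the effect of 250 µg/kg in DEL beside that in INS mice. In a model over 43 arrays of both lines, the effect differed for 1277 of 21115 features (limma interaction, 6.05%): INS minus DEL was above 0 for 424 and below 0 for 853. For all 1277 the INS effect was the less far in DEL's direction, and for 316 its sign was opposite. Without replicate 3, 834 were called. After quantile normalization over all arrays the split was 742 above and 840 below 0, and after median centring 1789 and 679. In the same model 36 features were called for the INS effect and 4991 for the DEL effect. Median array levels were 5.22 to 5.35 in these INS groups and 5.81 to 6.25 in DEL, so levels are not compared across lines.

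For the CYP1 genes no difference between the lines was called. Cyp1a1 and Cyp1a2 read high in treated DEL liver, and saturation was not tested. Cyp1a1 rose by 4.93 ± 0.20 in INS and 4.82 in DEL in this model, an INS minus DEL difference of 0.11 ± 0.28 (limma adjusted p = 0.881). The difference was -0.22 ± 0.47 for Cyp1b1 and 0.13 ± 0.11 for Cyp1a2, and none of the 3 was called. Ahrr (-1.45 ± 0.50) and Tiparp (-1.14 ± 0.42) were not called either (limma adjusted p = 0.0778 and 0.109), and Tiparp was called after quantile normalization. Nqo1 rose by 1.95 ± 0.31 in INS, which is 1.84 ± 0.44 less than in DEL (limma adjusted p = 0.0076).

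Genes of inflammation, matrix and male-biased expression were among those that differed. Gpnmb rose by 1.60 ± 0.59 in INS, with INS TCDD arrays at 4.70 to 7.35 and INS corn oil arrays at 3.61 to 5.10, an INS minus DEL difference of -4.84 ± 0.83. The difference was -3.78 ± 0.71 for Cbr3, -3.63 ± 0.64 for Mmp13, -3.41 ± 0.56 for Pf4 and -3.33 ± 0.83 for Elovl7, a fatty acid elongase. In the other direction Hsd3b5 gave 5.44 ± 1.0, with INS arrays at 8.81 to 11.35 under TCDD and 10.91 to 12.38 under corn oil. Car1 gave 3.40 ± 0.68 and Chrna4, a nicotinic receptor subunit, 3.08 ± 0.74. Serpina4-ps1 gave 3.74 ± 1.08 and Slco1a1 3.69 ± 1.01 (limma adjusted p = 0.0293 and 0.0206). Both calls were lost without DEL TCDD 250 replicate 3 (3.53 and 2.93, limma adjusted p = 0.0743 and 0.0892), without INS TCDD 250 replicate 2 (0.092 and 0.056) and with all 60 arrays in the fit (0.0826 and 0.0517). Serpina4-ps1 also lost it without DEL corn oil replicate 1 or 4, or INS corn oil replicate 3 (3.58, 3.61 and 3.57).

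By list, 10 of 14 monocyte and lipid-associated macrophage markers had an INS minus DEL difference below 0 that was called, against 4.04% of all features. The same held for 10 of 28 cell cycle genes, 9 of 18 matrix proteases, 9 of 17 stellate markers, 7 of 14 neutrophil markers and 8 of 27 chemokines and cytokines. Differences above 0, called for 2.01% of all features, were found in 7 of 22 genes of fatty acid and triglyceride synthesis, 7 of 24 of amino acid breakdown, 6 of 18 male-biased genes and 5 of 24 bile acid genes. The AHR target list had 1 of 11 below 0, which was Nqo1. These list counts include DEL TCDD 250 replicate 3 and were not repeated without it, when 834 features were called in place of 1277. Among list members, Ccna2, Acta2, Cyp8b1 and Amdhd1 lost the call without it, while Gpnmb, Trem2, Aurkb and Hsd3b5 kept it. The median effect of the macrophage list was 2.27 in DEL and 0.36 in INS, and that of the male-biased list -1.81 in DEL and -0.28 in INS.

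**Figure D5:**
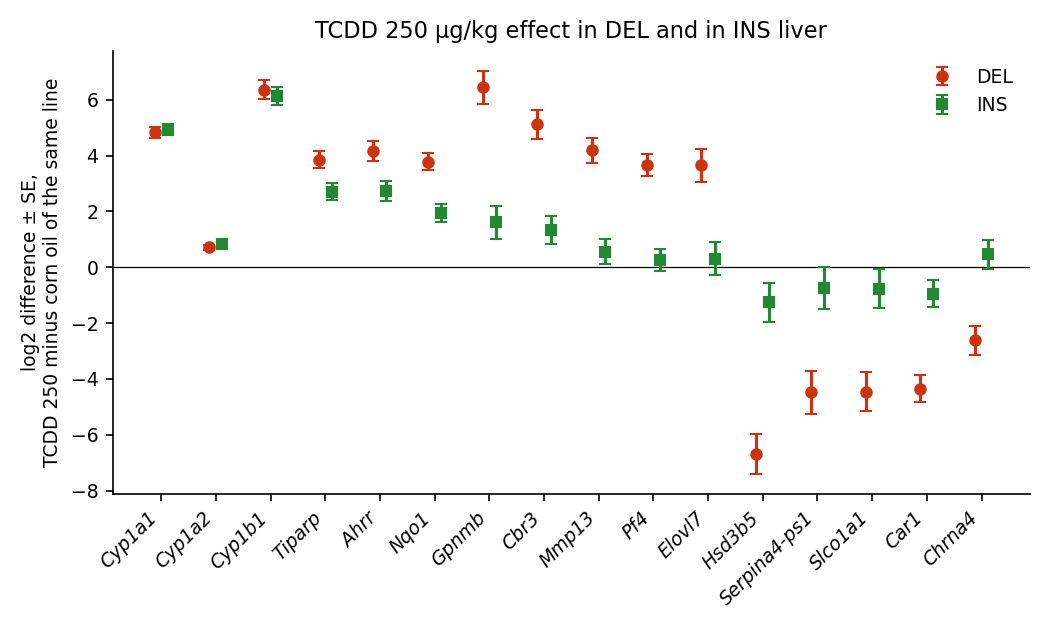
Points give the log2 difference of TCDD 250 minus corn oil of the same line, with its SE, for 16 named genes in DEL (red circles) and INS (green squares), from the model over both lines. Cyp1a1, Cyp1a2 and Cyp1b1 lie close together in both lines, and from Nqo1 rightward the 2 lines part.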

How the data were processed

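Liver RNA was hybridised to Affymetrix arrays, 1 animal per array. Per the labels and the submitters' processing notes, the authors deposited RMA log2 values made with affy 1.44.0 in R 3.1.2; no source used here states the probe-set definition or a build. All 21115 features were used without further scaling; 20405 had 1 symbol, 0 several, and 710 none, and the last are not named. limma 3.58.1 in R 4.3.3 fitted a mean for each of the 5 DEL groups over 21 arrays (lmFit, contrasts.fit, eBayes, two-sided), and for the INS comparison a mean for each group over 43 arrays. The rWT arrays were left out because 4 go against their sex label and levels differ by line. The fit was run on simulated data with few changed features and the corn oil spread in every group. That run did not test it at the larger spread seen with TCDD. Each comparison was adjusted over all features; the number of arrays limits the precision.

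Members and lists were chosen with earlier results of these data known, so a list's count is a description. The 44 lists hold 766 genes, 704 of them measured. Named are Ahr and 7 targets, the 15 largest rises and falls without overlap, up to 4 called members per list and those against its majority, and the 5 largest per direction of the INS comparison. Features quoted as not called, Nfe2l2, the stomach genes and Ciita were chosen after their values were seen.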

Additional observations from a re-analysis of the deposited data

Results flagged for a closer look

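Within a group of 4 or 5 arrays, 16 named genes and 1 response share had 1 array far from the rest by Dixon's test. With 362 groups of values tested, chance alone flags about 1 in 20, and the number flagged here was no larger than that. The genes share the same arrays, so this total cannot tell which single flags arose by chance. The flags were not spread evenly, with 7 of the genes on TCDD 250 replicate 3. TCDD 250 replicate 3 was the far array for Aldh3a1 (6.15), Tff2 (11.06), Car2 (9.70), Cd79b (9.39), Car1 (3.91), Inmt (8.0) and Cyp4a12a (9.42). TCDD 250 replicate 4 was the far array for Ncoa1 (7.32), Acot3 (7.35) and Oasl2 (8.68). Among corn oil arrays, replicate 4 was far for Hsd3b5 (12.38) and Nkg7 (7.02), replicate 3 for Acmsd (10.73), Id1 (8.35) and the response share (8.98%), replicate 2 for Hk2 (4.47) and replicate 5 for Ier3 (5.79).

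The effect of 250 µg/kg differed between INS and DEL, by the interaction term, for 1277 features. Among the named genes INS minus DEL was -1.84 for Nqo1, -4.84 for Gpnmb, -3.78 for Cbr3, -3.63 for Mmp13, -3.41 for Pf4 and -3.33 for Elovl7. It was 5.44 for Hsd3b5, 3.74 for Serpina4-ps1, 3.69 for Slco1a1, 3.40 for Car1 and 3.08 for Chrna4.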

How the results depend on the processing

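The count of 4878 features became 9322 after median centring (1610 higher, 7712 lower; 17.3% higher against 52.2%). It was 5346 after quantile normalization (2351 higher, 2995 lower), 4747 with all 60 arrays, 4438 with the compared groups alone, 4133 of 10558 with dim features left out, 4860 with a variance trend and 3940 to 5552 with 1 replicate left out. The INS minus DEL count of 1277 became 2468 after median centring (1789 above and 679 below 0), 1582 after quantile normalization, 891 with all 60 arrays and 834 to 1629 with 1 replicate left out, the lowest without DEL TCDD 250 replicate 3. The count against 500 µg/kg ranged from 0 to 1. Of 171 named genes called against corn oil, 135 kept the call under every alternative run, 36 lost it under at least 1, and 0 changed sign. Uncalled values changed sign as follows, and the cause was not tested. Ahr gave -0.24 after median centring and -0.0545 to 0.13 with 1 replicate left out. Krt19 gave -0.20 without TCDD 250 replicate 3 and 1.64 without replicate 4. For INS minus DEL, Ahr gave 0.15 after median centring and -0.19 to 0.0022 with 1 replicate left out. Cyp1b1 gave 0.0037 after median centring and -0.48 to 0.0859 with 1 left out. Cyp1a1 gave -0.39 after quantile normalization and -0.0447 to 0.26 with 1 left out. Deviations of arrays with the same replicate number correlated between corn oil and TCDD 250 at -0.144 to 0.022, and those with different numbers at -0.113 to 0.159. So few values cannot decide whether arrays of 1 number share a factor. With a replicate block the counts were 4266, 1230 and, between doses, 0. With 4 or 5 arrays a group, differences near the standard errors given were not detectable.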
